A study of Mus musculus with 16 samples.

Results

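The comparison described here is the average effect of enzalutamide on gene expression over both diets, taken over 16 of the 16 tumours in the series. The 8 tumours from mice given the drug were set against the 8 from mice not given it, with each diet weighted equally, and the account centres on genes that moved alike in both diets. ENZ mice received enzalutamide at 20 mg/kg by gavage every day and ate chow freely, and ADF+ENZ mice received the same dose under alternate-day fasting, with 24 h without food and then 24 h with it. Vehicle mice ate freely without the drug, and ADF mice were on alternate-day fasting without the drug. Each group held 4 tumours. Every tumour grew under the skin of a male C57BL/6 mouse, 6 weeks old at implantation, from B6MyC-CaP cells, and treatments were assigned at random after tumours had formed. B6MyC-CaP is 1 prostate cancer line, derived from Hi-MYC transgenic animals backcrossed to C57BL/6. In Hi-MYC mice a human MYC transgene is driven by an androgen-responsive probasin promoter in prostate epithelium. Tumours are numbered in the labels, which do not say whether any 2 shared a mouse, and the spread behind every p-value is the one between these 16 samples.

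Enzalutamide is an antiandrogen, a drug that keeps androgen from acting on prostate cells. In prostate epithelium androgen switches on secretory proteins and genes of lipid and protein production, and it works through many DNA sites that glucocorticoids use as well. MYC, the driver of this tumour model, is a transcription factor best known for raising genes of ribosome assembly, nucleotide synthesis and DNA replication.

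Libraries held 10072489 to 25505655 counts assigned to genes, and of 7 library measures 4 differed between tumours with and without the drug when drug labels were exchanged within each diet. Reads in no annotated feature were 25.9% ± 1.45 in ENZ and 25.9% ± 2.25 in Vehicle, and 24.0% ± 2.05 in ADF+ENZ against 32.9% ± 2.73 in ADF (SD, n = 4 each; exact two-sided permutation test over 4900 assignments, adjusted p = 0.0293). Mitochondrial transcripts made up 1.69% ± 0.166 of gene counts with the drug and 1.36% ± 0.124 without it (SD, n = 8; exact permutation test, adjusted p = 0.00429). Reads aligned to several places were 7.49% ± 0.578 of reads with the drug and 6.07% ± 1.51 without it (SD, n = 8; exact permutation test, adjusted p = 0.00429). The ADF libraries stood apart in the fasted pair, while the freely fed pair had near-equal shares of reads in no feature. The part of library make-up in the results below was not tested beyond 1 fit that took the share of no-feature reads as a covariate, in which 27 genes passed in place of 3278. No member of the interferon, S phase, histone, ribosome assembly, respiratory chain or ribosomal protein lists described below passed in that fit, and 1 snoRNA gene did. With that covariate, 1588 of the 1599 genes moved alike kept their direction and the median size of their change was 0.27 in place of 0.41 on the log2 scale.

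**Figure D1:**
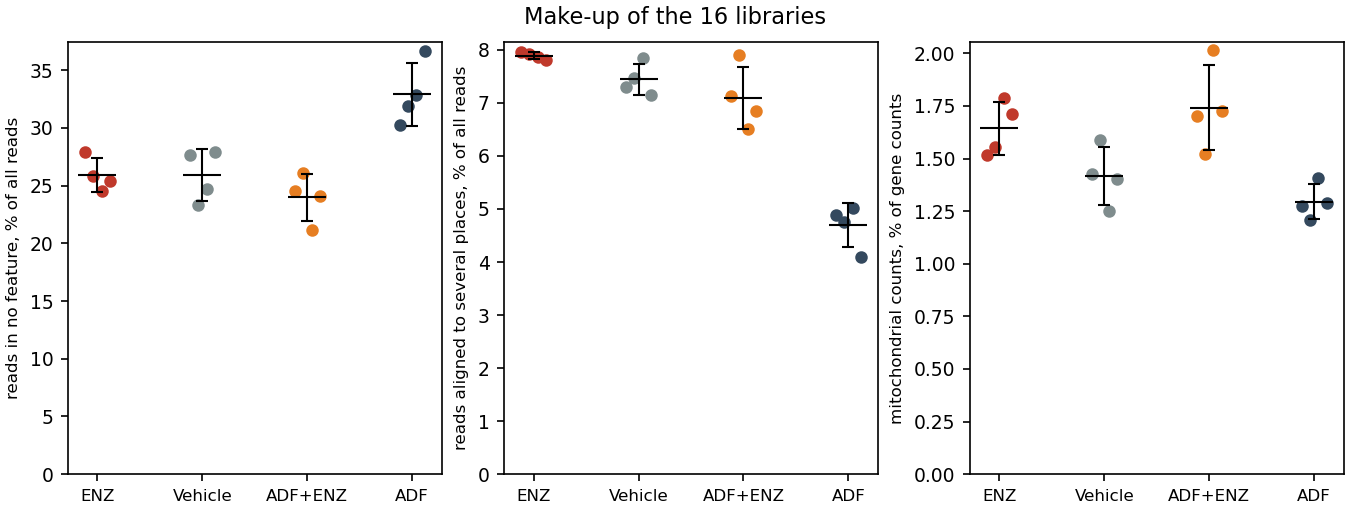
Make-up of the 16 libraries by group. Left, reads in no annotated feature in percent of all reads; middle, reads aligned to several places in percent of all reads; right, mitochondrial transcripts in percent of gene counts. Points are tumours, long bars means and whiskers SD (n = 4 each). The 4 ADF libraries stand above the others on the left and below them in the middle, while ENZ and Vehicle both average 25.9% on the left.

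On average over both diets, enzalutamide moved a large number of genes by small amounts. Of 18946 genes tested, 3278 passed at an adjusted p under 0.05 (17.3%), 1695 higher (8.95%) and 1583 lower (8.36%) with the drug. The median size of a change among them was 0.39 on the log2 scale, and 306 changed more than 2-fold, 88 of them higher and 218 lower. The total was 2069 without ENZ replicate 3 and 2100 without ADF replicate 4. The same fit gave 1028 genes in ENZ against Vehicle (5.43%), 342 higher (1.81%) and 686 lower (3.62%). It gave 3081 in ADF+ENZ against ADF (16.3%), 1652 higher (8.72%) and 1429 lower (7.54%). These 2 comparisons share no library. The effect differed between the diets in 587 genes (3.1%), in 413 of them with the higher value in fasted mice (2.18%).

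Genes were called moved alike when they passed the average, had the same direction in both diets and the smaller of the 2 changes was at least 0.5 times the larger. This held for 1599 genes (8.44% of those tested), 874 higher (4.61%) and 725 lower (3.83%), which is 48.78% of the genes that passed, and for 1039 without ENZ replicate 3. Of the rest, 1531 had the same direction with more unequal sizes and 148 had opposite directions. The cut has no gap around it: 187 genes lay at ratios from 0.5 to 0.55 and 193 from 0.45 to 0.5, and the adjusted p nearest the threshold were 0.04994 inside and 0.05006 outside. None (0) of the 1599 had a difference between diets past the threshold, but the same values chose the genes, so this is a description.

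Because the 2 diets share no tumour, each can be read against the other. Of the 1028 genes that passed in freely fed mice, 733 (71.304%) had the same direction in fasted mice, and of the 3081 that passed in fasted mice, 2120 (68.809%) had the same direction in freely fed mice, beside 57.653% of all genes tested. Both comparisons were passed in the same direction by 232 genes (1.22% of those tested), 108 higher and 124 lower, which is 22.568% of the calls in freely fed mice and 7.53% of those in fasted mice. That count was 99 to 146 without ENZ replicates 2, 3 or 4, Vehicle replicates 3 or 4, ADF replicates 3 or 4 or ADF+ENZ replicates 1 or 3. All 232 passed the average, also in each of the 16 fits that left out 1 library. Passing in both diets in the same direction leaves little room to miss their average, so this is a description. A further 25 genes passed in both diets in opposite directions and none of them passed the average. Of the 3278 genes, 898 passed in neither diet alone. In 398 genes (2.1%) the groups with and without the drug did not overlap in either diet and moved the same way. In 183 genes (0.966%) all 8 levels with the drug lay on the same side of all 8 without it, 104 of them higher and 79 lower, and 148 of the 183 moved alike.

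**Figure D2:**
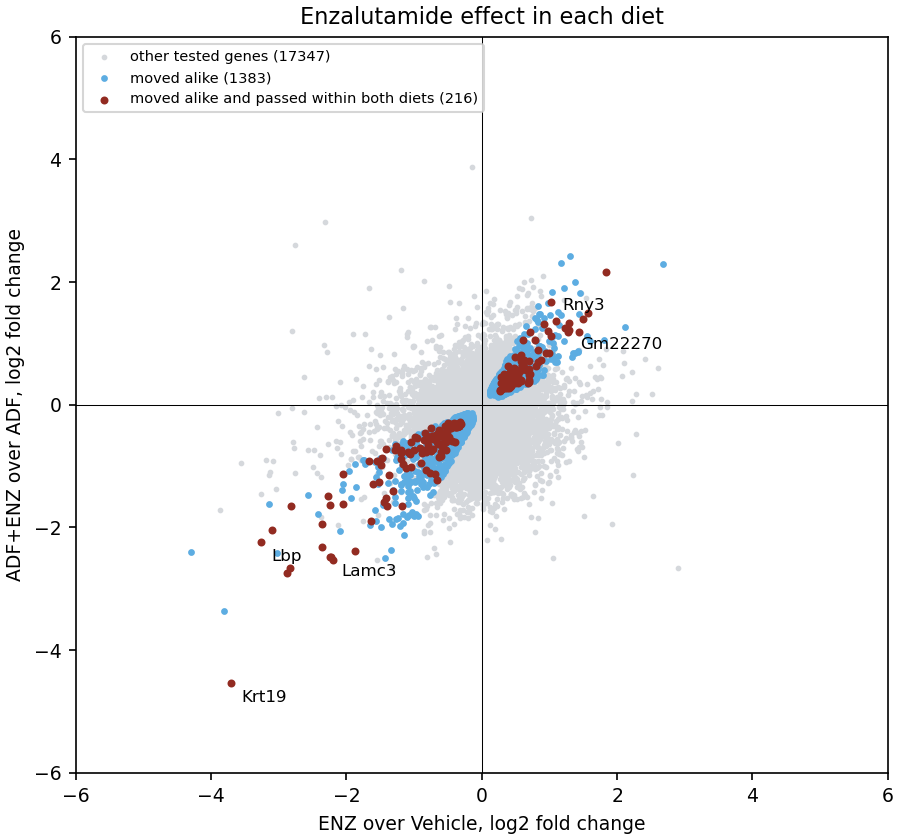
Enzalutamide effect in freely fed mice (ENZ over Vehicle, horizontal axis) and in fasted mice (ADF+ENZ over ADF, vertical axis), both as log2 fold changes, for all 18946 genes tested. Blue and dark red points are the genes moved alike, and the 216 in dark red also passed within both diets. They lie along the diagonal because the rule put them there. The lower left arm, with Lbp, Lamc3 and Krt19, reaches farther from 0 than the upper right arm with Rny3 and Gm22270.

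Among the largest decreases of genes moved alike were secreted and matrix proteins. Lbp encodes the lipopolysaccharide-binding protein, an acute phase protein of the liver that presents bacterial lipid to innate immune receptors. It had 22.01, 18.2, 19.8 and 12.7 CPM in ENZ and 8.01, 19.5, 2.63 and 14.7 CPM in ADF+ENZ, against 161, 163, 96.2 and 273 CPM in Vehicle and 53.3, 47.3, 79.1 and 41.1 CPM in ADF. CPM are counts per 1e6 library counts, scaled by TMM, and all fold changes are on the log2 scale. Every tumour with the drug lay below every tumour without it, and Lbp fell by 2.75 (SE 0.32, edgeR adjusted p = 0.000328). Lamc3, the laminin gamma-3 chain of basement membranes, had 6.71, 4.03, 4.99 and 4.9 CPM in ENZ and 2.29, 5.64, 1.64 and 2.26 CPM in ADF+ENZ, against 26.9, 17.4, 23.9 and 27.8 CPM in Vehicle and 10.8, 11.4, 22.2 and 23.4 CPM in ADF. It fell by 2.36 (SE 0.242, edgeR adjusted p = 6e-05), again with no overlap. Apod, a secreted lipid carrier, lay between 1.99 and 7.96 CPM with the drug and between 9.03 and 29.6 CPM without it, a fall by 2.36.

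Fmo1, an enzyme of drug oxidation, fell by 1.94 (SE 0.317, edgeR adjusted p = 0.00181). Further large decreases were in Gad2, which makes the transmitter GABA from glutamate (-2.34), in the tight junction protein Cldn10 (-2.15), in Ppp1r1b, an inhibitor of protein phosphatase 1 (-2.02), and in the phospholipase Plce1 (-1.80, all log2). Cldn10 and Gad2 also passed within both diets. Plce1 passed in neither diet alone although its ranges did not overlap, at 1.86 to 73.2 CPM with the drug and 105 to 195 CPM without it. The increases were smaller. They were led by small noncoding RNAs, described further on, and then by Rnf183, a membrane ubiquitin ligase (1.09), Ctxn1, a small membrane protein known from neurons (1.08), the elastase gene Cela1 (0.97) and Ifitm10 of the interferon-induced transmembrane family (0.92). Cela1 had 9.83 to 25.4 CPM with the drug and 5.59 to 9.95 CPM without it, so the ranges overlapped slightly.

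**Figure D3:**
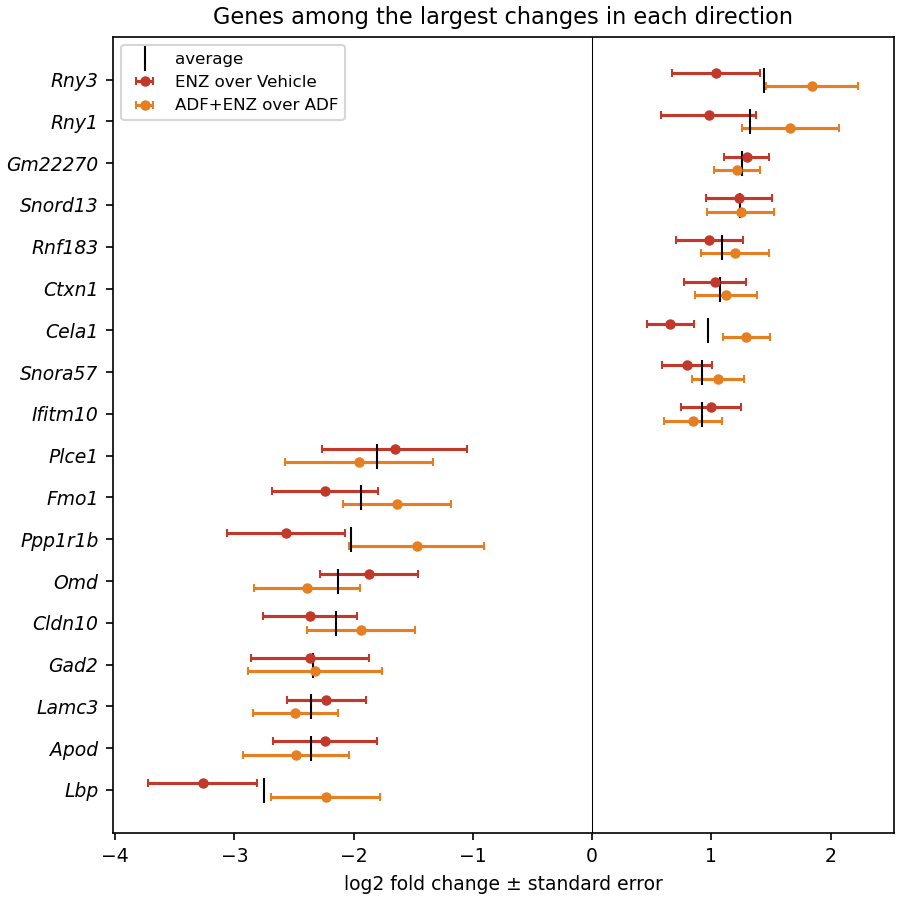
The genes described among the 10 largest increases and the 10 largest decreases of genes moved alike, whose ranges did not overlap within either diet, with a mean of at least 1 CPM. Red points are ENZ over Vehicle and orange points ADF+ENZ over ADF, with whiskers of 1 standard error; black ticks are the average. Decreases reach -2.75 (Lbp) and increases 1.44 (Rny3) in log2 units, and the whiskers of both diets overlap for most genes.

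The smallest p-values belonged to genes with moderate and steady decreases. B4galnt1 (ENSMUSG00000006731), the synthase that makes the gangliosides GM2 and GD2, had 14.8, 16.4, 15.6 and 17.7 CPM in ENZ and 14.5, 13.4, 12.3 and 15.8 CPM in ADF+ENZ, against 41.6, 46.6, 49.3 and 44.2 CPM in Vehicle and 28.5, 22.7, 27.6 and 32.5 CPM in ADF. The 8 tumours with the drug spanned 12.3 to 17.7 CPM in spite of different levels without it. B4galnt1 fell by 1.24 (SE 0.0781, edgeR adjusted p = 3.54e-08). Msln, the cell surface protein mesothelin, had 42.6, 37.9, 37.3 and 47.9 CPM in ENZ and 41.6, 44.4, 35.5 and 38.7 CPM in ADF+ENZ, against 86.7, 88.1, 98.8 and 105 CPM in Vehicle and 82.1, 74.0, 77.2 and 61.6 CPM in ADF. It fell by 1.03 (SE 0.0744, edgeR adjusted p = 1.73e-07). Both still passed when the share of no-feature reads was a covariate, at -1.19 and -1.05 (edgeR adjusted p = 0.000250 and 0.000436), as did Lamc3 at -1.54 and the snoRNA gene Gm22270 at 1.15.

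Some further genes with steady decreases were named after their values were seen. Arrb1, the arrestin that desensitizes G protein-coupled receptors, fell by 0.74 and lay at 46.3 to 99.3 CPM with the drug and 99.6 to 155 CPM without it. Ddr1, a receptor tyrosine kinase for collagen, fell by 0.75, and Stim1, the calcium sensor of the endoplasmic reticulum, by 0.57. Scara5, a scavenger receptor that takes up ferritin, fell by 0.97, and Prps2, which makes phosphoribosyl pyrophosphate for nucleotide synthesis, by 0.72. Eef2k, the kinase that slows translation elongation by phosphorylating elongation factor 2, lay at 19.4 to 29.2 CPM with the drug and 33.3 to 40.4 CPM without it, a fall by 0.64 in both diets (edgeR adjusted p = 0.0031 in freely fed and 0.00347 in fasted mice). Nav1, a microtubule-binding protein, and Radil, an effector of the small GTPase Rap1, fell by 0.72 and 1.03. All these passed within both diets.

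Among secreted factors and their regulators, some fell and some rose in both diets. Bmp6, a bone morphogenetic protein, fell by 1.45 and lay at 1.2 to 2.61 CPM with the drug and 2.78 to 9.27 CPM without it. Cemip, which takes part in breaking down hyaluronan, fell by 1.47, the matrix protein gene Tinagl1 by 1.29 and the homeobox factor Isl1 by 1.59. Hgf, the ligand of the MET receptor, rose by 0.95, with 9.57 to 24.1 CPM with the drug and 5.76 to 12.2 CPM without it. Artn, a ligand of the GDNF family, rose by 0.87, Gdf11 of the TGF-beta superfamily by 0.54, the Wnt-pathway pseudokinase Ptk7 by 0.90 and the Hippo-pathway transcription factor Tead2 by 0.68. Pet100, an assembly factor of respiratory complex IV, rose by 0.71 (edgeR adjusted p = 0.000152), the mismatch repair gene Msh6 by 0.51 and the pro-apoptotic BH3-only gene Bmf by 0.44. These 12 genes were also named after their values were seen. Each passed within both diets, and this is a description of the genes picked.

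**Figure D4:**
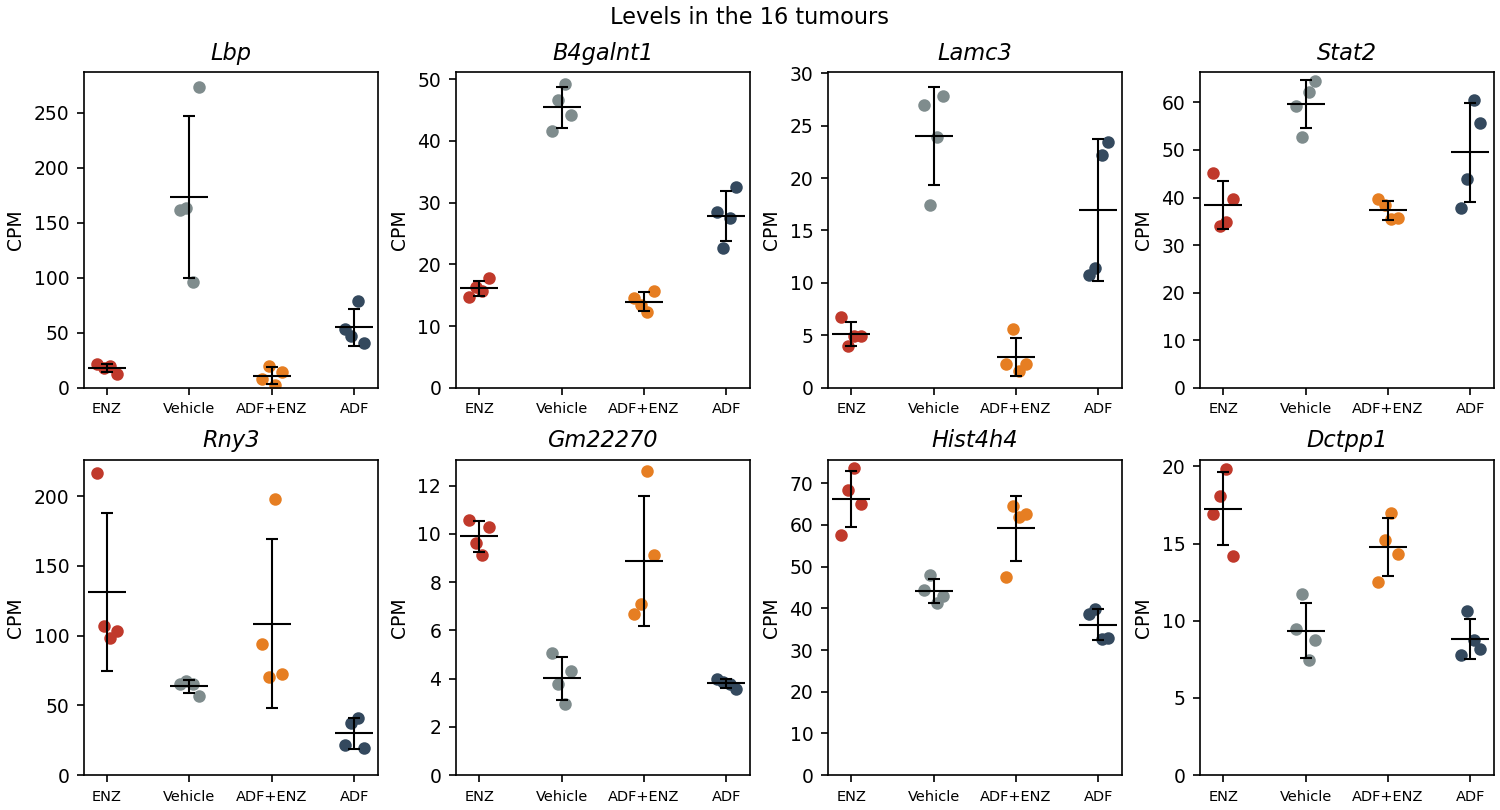
Levels of 8 genes in the 16 tumours, in TMM-scaled CPM on axes from 0. Points are tumours, long bars means and whiskers SD (n = 4 each), with ENZ left of Vehicle and ADF+ENZ left of ADF. Lbp, B4galnt1 and Lamc3 with the drug lie below all tumours without it, Stat2 is lower with some overlap, and Rny3, Gm22270 and Dctpp1 lie above all tumours without the drug; for Hist4h4 the lowest tumour with the drug, at 47.5 CPM, lies just under the highest without it, at 48.0 CPM.

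Matrix and adhesion genes were mixed. Of 10 tested small leucine-rich proteoglycans, a family that binds collagen and was listed after values were seen, 4 fell (40%, beside 8.36% of all genes), 6 did not pass and all 4 moved alike. Within the diets, 1 fell in freely fed mice (beside 3.62%) and 5 in fasted mice (beside 7.54%), with medians of -0.12 and -0.79. Omd (osteomodulin) had 0.329 to 3.61 CPM with the drug and 5.24 to 15.7 CPM without it, a fall by 2.13, Ogn fell by 1.62, Prelp by 1.26 and Aspn by 0.68, which did not pass when genes were not filtered on low counts. Of 39 matrix proteins 4 fell (10.3%) and 2 rose (5.13%), shares near the 8.36% and 8.95% of all genes, with a median change of -0.09 beside -0.01 over all genes. Only 1 of the lower and none of the higher matrix genes moved alike. Lamb2, the laminin beta-2 chain, fell by 0.62 (SE 0.0702, edgeR adjusted p = 4.07e-05), the fibulin Fbln2 changed by -1.11 and the collagen Col8a1 by -0.65, while Ptn, the growth factor pleiotrophin, rose by 1.49. Of 18 integrins 3 fell (16.7%) and 1 rose (5.56%), and the lower count was 1 with no filter and 5 by limma-voom. Itga10, a collagen-binding integrin, lay at 47.1 to 104 CPM with the drug and 101 to 180 CPM without it and fell by 1.08, and Itga6, the laminin-binding integrin of basal epithelium, fell by 0.42 but did not pass with no filter. None of 12 fibroblast markers passed, and their summed level was 9435 to 13459 CPM with the drug and 8905 to 12840 CPM without it. In bulk samples, fewer cells of a type and less RNA per cell cannot be told apart.

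Interferon-stimulated genes, the antiviral programme switched on below the interferon receptors by complexes that hold STAT2, were lower with the drug. Of 39 tested, 18 fell (46.2%, beside 8.36% of all genes that fell), none rose and 11 of the 18 moved alike. The average was below 0 for all 39 and the median change was -0.30, with -0.27 in freely fed and -0.29 in fasted mice. By diet, 3 fell in freely fed mice (beside 3.62% of all genes) and 12 in fasted mice (beside 7.54%). Stat2 had 45.1, 34.1, 34.9 and 39.7 CPM in ENZ and 39.6, 38.5, 35.5 and 35.6 CPM in ADF+ENZ, against 59.1, 52.7, 62.2 and 64.5 CPM in Vehicle and 37.8, 43.9, 60.5 and 55.6 CPM in ADF. The freely fed groups did not overlap, and the fasted groups overlapped through ADF replicate 1. Stat2 fell by 0.52 (SE 0.0886, edgeR adjusted p = 0.00118) and was the only member past the threshold within both diets. Parp14, a mono-ADP-ribosyltransferase, fell by 0.52, Ifi27 by 0.49 and Oas2, a sensor of double-stranded RNA, by 0.82, of which -0.29 in freely fed and -1.35 in fasted mice. Irf7, the transcription factor that amplifies the response, fell by 0.46, and Ifit1 was -0.25 (edgeR adjusted p = 0.513).

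Acute phase genes were lower in part, while few antigen presentation genes passed. Of 20 antigen presentation genes 2 fell (10%, near the 8.36% of all genes): H2-T23, a nonclassical class I molecule, fell by 0.99 and Tapbp, the chaperone tapasin, by 0.54. H2-T23 had 12.9 to 32.5 CPM with the drug and 34.1 to 75.4 CPM without it. Of 11 acute phase genes, 6 fell on average (54.5%, beside 8.36%), 8 in freely fed mice (beside 3.62% of all genes) and 3 in fasted mice (beside 7.54%), with medians of -0.97, -1.60 and -0.42. Lbp alone of the 6 moved alike. Serpina3n, a protease inhibitor, fell by 1.78, but by 2.43 in freely fed and 1.12 in fasted mice. Of 14 T cell genes 1 fell (7.14%) and of 15 macrophage genes 1 rose (6.67%), near the 8.36% and 8.95% of all genes. None of 6 natural killer cell, 5 neutrophil or 8 dendritic cell genes passed, and lists this short could hold none at those shares. The single lower T cell gene was Foxp3, the transcription factor of regulatory T cells, at -0.55, and the higher macrophage gene was Apoe at 0.40. Neither Foxp3 nor Apoe moved alike. Macrophage genes summed to 4009 to 5470 CPM with the drug and 3510 to 5086 CPM without it.

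Small noncoding RNA genes gave the largest increases among genes moved alike whose ranges did not overlap within either diet, at a mean of at least 1 CPM. The Y RNAs bind the Ro60 protein and take part in RNA quality control, box C/D snoRNAs guide methylation or act on ribosomal RNA, and H/ACA snoRNAs guide pseudouridylation. Transcripts of 4 small RNA genes are shown because genes this short led the increases under that rule. Sequences are those of the GENCODE M21 transcripts, given 5′ to 3′. Capitals mark the longest stretch that both Y RNAs share (12 bases) and the ACA that stands 3 bases from the end in the other 2.
Rny3: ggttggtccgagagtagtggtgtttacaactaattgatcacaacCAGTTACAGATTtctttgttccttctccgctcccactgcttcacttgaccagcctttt
Rny1: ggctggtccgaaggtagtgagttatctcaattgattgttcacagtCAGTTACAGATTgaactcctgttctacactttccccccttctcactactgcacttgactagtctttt
Snora57: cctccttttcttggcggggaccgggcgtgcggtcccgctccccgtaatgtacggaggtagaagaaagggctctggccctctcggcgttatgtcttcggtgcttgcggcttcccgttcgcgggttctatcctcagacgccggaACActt
Gm22270: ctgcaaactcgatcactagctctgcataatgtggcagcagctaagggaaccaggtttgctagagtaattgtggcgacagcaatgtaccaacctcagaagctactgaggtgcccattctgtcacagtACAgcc

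Rny3, on chromosome 6 with Rny1, had 216, 107, 98.5 and 104 CPM in ENZ and 93.7, 70.02, 198 and 72.4 CPM in ADF+ENZ, against 65.1, 67.4, 65.4 and 56.8 CPM in Vehicle and 21.9, 37.4, 41.3 and 19.2 CPM in ADF. No tumour with the drug lay as low as any without it, although ENZ replicate 1 and ADF+ENZ replicate 3 stood far above the rest of their groups. Rny3 rose by 1.44 (SE 0.267, edgeR adjusted p = 0.00416) and Rny1 by 1.32 (SE 0.286, edgeR adjusted p = 0.00939), and within the diets both passed in fasted mice only. Gm22270 (ENSMUSG00000077222), a snoRNA gene on chromosome 5, had 10.6, 9.62, 9.13 and 10.3 CPM in ENZ and 6.7, 7.1, 12.6 and 9.13 CPM in ADF+ENZ, against 5.05, 3.77, 2.95 and 4.31 CPM in Vehicle and 4.0, 3.85, 3.78 and 3.58 CPM in ADF. It rose by 1.25 (SE 0.135, edgeR adjusted p = 2.88e-05), by 1.30 in freely fed and 1.21 in fasted mice. Snord13, which pairs with 18S ribosomal RNA and is needed for an acetylation on it, rose by 1.24, with 1.23 in freely fed and 1.24 in fasted mice, and Snora57 by 0.92. Snord13 was low, at 1.95 to 4.38 CPM with the drug and 0.654 to 1.76 CPM without it.

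Over all 78 snoRNA genes tested, a list added after values were seen, 28 rose (35.9%, beside 8.95% of all genes that rose), none fell and 15 of the 28 moved alike. The median change was 0.30, with 0.30 in freely fed and 0.40 in fasted mice. In freely fed mice 6 rose and none fell (beside 1.81% of all genes that rose), and in fasted mice 20 rose and 3 fell (beside 8.72% and 7.54%). These genes lie mostly in introns of host genes and have near-identical copies, and no source used here says whether the counting used strand, so that reads of a snoRNA and of its host or antisense partner cannot be told apart. RNA was purified on an RNeasy column, which retains short RNAs poorly. The share of reads aligned to several places was also higher with the drug, at 7.49% against 6.07%, and its part in these counts was not tested.

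Some DNA replication and histone genes rose, and no gene of the mitosis list passed; the difference between these lists was not tested. Of 36 S phase genes 11 rose (30.6%, beside 8.95%), none fell and 10 of the 11 moved alike, with a median of 0.23, against 0.26 in freely fed and 0.15 in fasted mice. Within the diets, 4 rose in freely fed mice (beside 1.81% of all genes). Only 2 rose and 1 fell in fasted mice (beside 8.72% and 7.54%). Rfc3, a subunit of the clamp loader, had 43.3 to 59.8 CPM with the drug and 28.5 to 42.1 CPM without it and rose by 0.56 (SE 0.085, edgeR adjusted p = 0.000503). Mcm7 of the replicative helicase rose by 0.39, Rfc4 by 0.40 and the thymidylate synthase gene Tyms by 0.41. The count ranged from 6 without ENZ replicate 3 to 17 without Vehicle replicate 2, and was 7 without Vehicle replicates 3 or 4, ENZ replicate 4, ADF replicate 4 or ADF+ENZ replicate 3. None of 30 genes of G2 and mitosis passed, with a median of 0.11 and 25 of the 30 averages above 0, and the proliferation marker Mki67 lay at 239 to 381 CPM with the drug and 210 to 359 CPM without it (edgeR adjusted p = 0.844).

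Of 57 replication-dependent histone genes, listed after values were seen, 18 rose (31.6%, beside 8.95% of all genes), 1 fell (1.75%, beside 8.36%) and 38 did not pass, with medians of 0.38 on average, 0.51 in freely fed and 0.27 in fasted mice. Within the diets, 9 rose in freely fed mice (beside 1.81%) and 7 in fasted mice (beside 8.72%). Hist4h4 had 57.5, 68.3, 73.6 and 65.0 CPM in ENZ and 47.5, 64.4, 61.9 and 62.7 CPM in ADF+ENZ, against 44.5, 48.0, 41.2 and 42.9 CPM in Vehicle and 38.7, 39.8, 32.8 and 32.9 CPM in ADF. The groups did not overlap within either diet and Hist4h4 rose by 0.65 (SE 0.0739, edgeR adjusted p = 4.18e-05). Hist1h4c rose by 0.61, Hist2h4 by 0.52 and Hist1h4h by 0.49. Histone genes share near-identical coding sequence and their main transcripts lack a poly(A) tail, so single members are uncertain. The count of higher members was 31 without Vehicle replicate 2 and 28 without ENZ replicate 1.

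Among genes that MYC induces, most of them of ribosome assembly, those that passed were higher with the drug. Of 44 tested, 23 rose (52.3%, beside 8.95%), none fell, 15 of the 23 moved alike and the average was above 0 for all 44, with a median of 0.20, against 0.17 in freely fed and 0.24 in fasted mice. By diet, 2 rose in freely fed mice (beside 1.81% of all genes) and 16 in fasted mice (beside 8.72%). The list also holds Ldha, Odc1, Srm, Hspd1, Hspe1, Apex1 and Dctpp1, which act in metabolism, protein folding or DNA repair, and Srm, Hspe1 and Dctpp1 are among the 23. Dctpp1, a pyrophosphatase that clears noncanonical nucleotides, had 16.9, 18.1, 19.8 and 14.2 CPM in ENZ and 12.5, 15.3, 17.0 and 14.3 CPM in ADF+ENZ, against 9.45, 11.7, 7.46 and 8.78 CPM in Vehicle and 7.75, 10.7, 8.74 and 8.17 CPM in ADF. All tumours with the drug exceeded all without it, and Dctpp1 rose by 0.81 (SE 0.107, edgeR adjusted p = 0.000167). Ppan, which acts in assembly of the large ribosomal subunit, lay at 40.6 to 53.6 CPM with the drug and 30.4 to 39.5 CPM without it and rose by 0.36, and these 2 members passed within both diets. Pes1, a further assembly factor, rose by 0.35, of which 0.08 in freely fed and 0.63 in fasted mice. The count was 10 to 15 without Vehicle replicate 1, ENZ replicates 2 or 3, ADF replicates 3 or 4 or ADF+ENZ replicate 3. Mouse Myc itself was 0.10 (SE 0.104, edgeR adjusted p = 0.556), at 79.6 to 148 CPM with the drug and 87.9 to 153 CPM without it, and reads of the transgene were not separated.

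Part of the respiratory chain and ribosomal protein genes rose as well, while most nuclear-encoded subunits and ribosomal proteins did not pass. The difference between diets passed for no gene of these 3 lists. Of 57 nuclear-encoded subunits of oxidative phosphorylation, 27 rose (47.4%, beside 8.95% of all genes), none fell and 13 moved alike (4.61% of all genes moved alike and higher), with medians of 0.20 on average, 0.08 in freely fed and 0.32 in fasted mice. Sdhb of complex II had 60.9 to 74.8 CPM with the drug and 40.1 to 58.5 CPM without it and rose by 0.41 (SE 0.0639, edgeR adjusted p = 0.00055). Ndufb8 of complex I rose by 0.38 and Uqcrq of complex III by 0.41. In freely fed mice 2 rose (beside 1.81%) and in fasted mice 30 (beside 8.72%). Of 15 mitochondrially encoded genes 12 rose (80%), 1 in freely fed and 11 in fasted mice, and 5 of the 12 moved alike. Among them, mt-Nd1 of complex I rose by 0.53, at 1074 to 1892 CPM with the drug and 734 to 1242 CPM without it. Of 75 cytosolic ribosomal protein genes 32 rose (42.7%), 2 in freely fed and 35 in fasted mice, none fell and 7 moved alike, led by Rpl13a (0.59) and Rpl21 (0.36), the 2 members past the threshold within both diets. The count of ribosomal protein genes was 15 to 21 without Vehicle replicates 1 or 4, ENZ replicates 2 or 3, ADF replicates 2, 3 or 4 or ADF+ENZ replicate 3. Processed pseudogenes of these genes share their reads, so single members are uncertain.

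Androgen response genes, listed mainly from what is known of human prostate cancer cells, were mixed. Of 90 tested, 12 rose and 9 fell (13.3% and 10%, beside 8.95% and 8.36% of all genes), with a median of 0.02. In freely fed mice 2 rose and 9 fell (beside 1.81% and 3.62% of all genes). In fasted mice 15 rose and 4 fell (beside 8.72% and 7.54%), and in 11 the effect differed between the diets (beside 3.1%). Only Krt19 and Pmepa1 passed within both diets. Pmepa1, a membrane protein that dampens TGF-beta signalling and is induced by it as well as by androgen, rose by 0.77, by 1.05 in freely fed and 0.49 in fasted mice, and lay at 551 to 941 CPM with the drug and 294 to 582 CPM without it. Of 33 TGF-beta genes 3 rose (9.09%, beside 8.95%) and 5 fell (15.2%, beside 8.36%). Beside Pmepa1, Inhba, the activin beta-A subunit, and the repressor Tgif1 rose, by 0.72 and 0.42, and those that fell were Smad6, Ski, Ltbp1, Fst and Ccn2. The lower count was 1 without ENZ replicate 3, 2 without ENZ replicate 2 or ADF+ENZ replicate 1, in the additive model or with no filter, and 3 without Vehicle replicates 2 or 4, ADF replicates 1 or 3 or ADF+ENZ replicate 3. The higher count was 5 without Vehicle replicate 2 or ENZ replicate 1 and by limma-voom. Krt19, an epithelial keratin, had 13 counts over the 8 tumours with the drug and 201 over the 8 without it, of which Vehicle held 169. Ncoa3, a coactivator of nuclear receptors, fell by 0.34 and moved alike, at 173 to 235 CPM with the drug and 226 to 304 CPM without it. Hsd11b1, which converts inactive glucocorticoid to the active form, rose by 1.17, and the glucocorticoid receptor gene Nr3c1 was 0.13 (edgeR adjusted p = 0.205).

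Most prostate secretory genes listed were close to absent. Probasin (Pbsn) had 0 counts with the drug and 0 without it, which allows up to 0.0235 CPM over the 8 tumours with it and 0.0242 CPM over the 8 without it (3 counts over each set, counting error only). Over all 16 tumours Sbp had 0 counts, Defb50 had 1, Spink1 had 3 and Msmb had 8, while the prostate transglutaminase gene Tgm4 had 402 and did not pass (edgeR adjusted p = 0.896). Tmprss2, a membrane protease, had 26 counts with the drug and 34 without it, and the epithelial marker Epcam 67 with it and 46 without it, too few at this depth to detect a difference. Krt8, a luminal keratin, was present at 206 to 661 CPM with the drug and 427 to 650 CPM without it (-0.21, edgeR adjusted p = 0.481). Of 7 basal epithelial genes 3 fell (42.9%, beside 8.36% of all genes), among them Itga6 and the basal transcription factor Trp63. Trp63 changed by -1.39, with 0.219 to 5.53 CPM with the drug and 3.54 to 10.7 CPM without it. Neither Trp63 nor Itga6 passed with no filter. The keratins Krt5, Krt14, Krt15 and Krt17 of that list had 2 to 8 counts over all 16 tumours and were not tested.

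For some lists the average joined unequal effects. Of 23 glycolysis genes 4 fell on average (17.4%, beside 8.36% of all genes). In freely fed mice 11 fell (beside 3.62%) and in fasted mice 4 rose (beside 8.72%), with medians of -0.54 and 0.17. The effect differed between the diets in 12 (beside 3.1%). The average count of glycolysis genes was 1 without ENZ replicate 3, ADF replicate 4 or ADF+ENZ replicates 1 or 3, 2 without Vehicle replicates 2 or 3, ENZ replicate 4 or ADF replicate 3, and 7 without Vehicle replicate 4 or ADF replicate 1. Of 28 hypoxia response genes 8 fell on average (28.6%, beside 8.36%), or 4 in the additive model. In freely fed mice 12 fell (beside 3.62%), and in fasted mice 2 rose and 1 fell (beside 8.72% and 7.54%). Ero1l, an oxidase of protein folding that hypoxia induces, averaged -0.93, from -1.56 in freely fed and -0.31 in fasted mice (difference between diets, edgeR adjusted p = 0.0223), and P4ha2, a collagen prolyl hydroxylase, averaged -0.41 from -0.93 and 0.12. Of 25 glucocorticoid-induced genes 4 fell on average (16%, beside 8.36%) and 1 rose (4%, beside 8.95%), and none moved alike. In freely fed mice 7 fell (beside 3.62%), and in fasted mice 3 rose (beside 8.72%). The average count of lower members was 2 without Vehicle replicate 3, ENZ replicate 3, ADF replicates 2, 3 or 4 or ADF+ENZ replicate 2, and 1 in the additive model. Fkbp5, a cochaperone induced by androgen and by glucocorticoids, had 203, 155, 143 and 180 CPM in ENZ and 402, 294, 451 and 273 CPM in ADF+ENZ, against 306, 422, 443 and 429 CPM in Vehicle and 343, 188, 208 and 228 CPM in ADF. Its average of -0.34 did not pass (edgeR adjusted p = 0.107), since it fell by 1.23 in freely fed mice and was 0.55 in fasted mice. Zbtb16 averaged -1.38 with -2.63 in freely fed and -0.12 in fasted mice.

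The 5 genes with the smallest p for the difference between diets among those past the average were chosen for that difference, so their values are a description. Ly6a, a surface antigen of progenitor cells, had 177, 211, 194 and 196 CPM in ENZ and 297, 262, 280 and 246 CPM in ADF+ENZ, against 409, 476, 529 and 477 CPM in Vehicle and 248, 255, 312 and 294 CPM in ADF. Its average of -0.66 came from -1.28 in freely fed mice alone, with -0.03 in fasted mice. Ly6c1, the sulfite oxidase gene Suox, the circadian repressor Nfil3 and the small GTPase gene Arl4a had averages of -0.53, -0.84, -0.47 and -0.37, all from decreases in freely fed mice. Adgrg2, an adhesion G protein-coupled receptor, and Nr1h4, the bile acid receptor FXR, fell in both diets but unequally, by 2.78 and 3.12 in freely fed and by 0.70 and 1.10 in fasted mice.

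Among the genes that neither diet called alone, the 8 with the smallest average p and at least 1 CPM included small and even changes. Cdk8, a kinase of the Mediator complex, had 79.1 to 95.2 CPM with the drug and 93.2 to 117 CPM without it, with -0.30 in freely fed and -0.26 in fasted mice and an average of -0.28 (SE 0.0626, edgeR adjusted p = 0.00699). Pus1, a pseudouridine synthase, had 21.1 to 27.5 CPM with the drug and 16.3 to 20.7 CPM without it, with 0.34 and 0.29 and an average of 0.31. The nuclear export factor Nxt1 (0.37), the ATP synthase subunit Atp5j2 (0.34), Zbed5 (0.40) and the histone gene Hist1h4a (0.61) rose, and the zinc finger gene Zfp300 (-0.76) and the unnamed locus Gm35853 (-0.83) fell.

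Gene classes differed in where the average came from. Of 13766 protein-coding genes 1445 rose (10.5%) and 1112 fell (8.08%), beside 8.95% and 8.36% of all genes tested. Of 1199 loci of the TEC class, transcripts still to be experimentally checked, 9 rose (0.75%) and 225 fell (18.8%). Within the diets, 337 of them fell in fasted mice (beside 7.54% of all genes) and 11 in freely fed mice (beside 3.62%). Of 921 antisense genes 14 rose (1.52%) and 88 fell (9.6%, near the 8.36% of all genes), with 130 lower in fasted mice and 2 lower in freely fed mice. In the same libraries reads in no feature were 24.0% in ADF+ENZ against 32.9% in ADF. The part of these reads in the class counts was not tested.

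Promoters of the genes moved alike, from 250 bases before to 50 after the most upstream start in RefSeq on GRCm38.p6, were found for 1054 of 1581 symbols and searched on both strands. The letters AGAACA, the half-site of androgen and glucocorticoid response elements, stood in 60 of 475 promoters of genes moved alike and lower (12.6%) and in 70 of 579 of those higher (12.1%), beside 13% of 11628 tested genes and 19% of all 27025 promoters in the table. The full palindromic element, in which such half-sites face each other, stood in none of either set, nor in any of the 11628 tested genes, and in 1 of the 27025 promoters. The MYC letters CACGTG stood in 10.1% of the lower and 11.4% of the higher set, beside 9.74% of tested genes, and the shorter ACGTG, which CACGTG contains, in 24.2% and 23.5%, beside 24.9%. Some of the 20 largest changes, among them Lbp, Lamc3, Fmo1 and the small RNAs, had no promoter to search. Among those with one, only the promoters of Plce1 and Cela1 held AGAACA, in capitals as read on the other strand. These 2 are shown because they held it.
Plce1, chr19:38523947-38524246, plus strand: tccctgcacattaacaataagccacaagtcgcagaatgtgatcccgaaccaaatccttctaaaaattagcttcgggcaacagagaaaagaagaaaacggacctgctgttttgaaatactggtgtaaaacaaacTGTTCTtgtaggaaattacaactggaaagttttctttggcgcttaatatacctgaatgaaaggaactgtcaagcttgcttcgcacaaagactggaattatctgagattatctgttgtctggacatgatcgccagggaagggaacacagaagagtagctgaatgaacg
Cela1, chr15:100687871-100688170, minus strand: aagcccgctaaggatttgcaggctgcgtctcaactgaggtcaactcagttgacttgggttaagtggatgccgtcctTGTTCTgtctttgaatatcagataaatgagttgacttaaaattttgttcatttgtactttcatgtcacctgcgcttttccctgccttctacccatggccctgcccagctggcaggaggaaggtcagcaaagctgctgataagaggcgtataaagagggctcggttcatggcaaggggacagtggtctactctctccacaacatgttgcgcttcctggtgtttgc
A match is a description of the letters, and Plce1 fell while Cela1 rose.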

How the data were processed

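Total RNA of 16 tumours was sequenced in pairs on a NovaSeq, per the labels. The authors deposited whole-number counts for each gene and library. Tools in the submitters' processing notes are DESeq2, featureCounts, HISAT2 and Trim Galore without versions, and the builds are mm39 and GRCh38 without roles. The 55414 Ensembl IDs got 52081 symbols from GENCODE M21, an earlier build used for names, classes and small RNA transcripts only; 3.51% of gene counts fell on IDs with no symbol. The 5 summary entries of unassigned reads were kept out of tests. Strand setting, fasting state at collection and batch are not given in the sources used here. Replicate pairs of a group gave a chi-square per degree of freedom of 5.79 to 38.6 over 24 pairs, above counting error.

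The test was edgeR's robust quasi-likelihood test (edgeR 4.0.16, R 4.3.3) with TMM and filterByExpr (minimum count 10, total 15), on 4 group means in 1 fit, with Benjamini-Hochberg adjustment over all genes of each contrast. The contrasts were the average of ENZ and ADF+ENZ minus the average of Vehicle and ADF, each diet's own effect, and their difference. Standard errors are the log2 change over the square root of F. CPM are TMM-scaled. On simulated counts of this contrast with 18618 genes, 77% of 100 genes planted at 2-fold and 98% of 100 at 4-fold were recovered, with 10 false among 185 calls. The simulated libraries shared 1 mean profile, with no diet effect and no differences in library make-up. Their share of false calls therefore does not carry over to the real libraries.

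The members, the 57 gene lists and the settings were chosen with earlier results of these data known. After values were seen, 5 lists and some genes were added. These genes are B4galnt1, Msln, the further steady decreases, the signalling and secreted factors with the genes described beside them, Mki67, Ifit1, Irf7 and Rpl13a. Named genes are otherwise the 10 largest increases and 10 largest decreases among genes moved alike with ranges apart in each diet and a mean of at least 1 CPM, up to 4 members per list, 8 genes called in neither diet alone, the 5 with the smallest p for the difference between diets, and a few chosen in advance. A few of these items are not reported here. Lists are described by counts and medians without a set test. Library measures were compared by exact permutation within diets, adjusted over 7 tests. Alternatives were DESeq2 size factors, DESeq2 1.42.0, limma-voom (limma 3.58.1), an additive model, other filters, protein-coding genes alone, a covariate and leaving out each library. Figures used matplotlib 3.10.9.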

Additional observations from a re-analysis of the deposited data

Results flagged for a closer look

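In 4 groups of 4 tumours, 1 tumour stood far from the other 3. Chance gives such a flag in about 1 of 20 groups, and 44 groups were looked at. Lamc3 was 5.64 CPM in ADF+ENZ replicate 2, against 1.64 to 2.29 CPM in the rest of that group, and stayed below every tumour without the drug. Rny3 was 216 CPM in ENZ replicate 1, against 98.5 to 107 CPM in the rest. Hist4h4 was 47.5 CPM in ADF+ENZ replicate 1, against 61.9 to 64.4 CPM in the rest. Fkbp5 was 306 CPM in Vehicle replicate 1, against 422 to 443 CPM in the rest.

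In 12 of the genes named, the effect of enzalutamide in fasted mice minus its effect in freely fed mice passed in edgeR. That difference, in log2 units, was 1.25 for Ly6a (adjusted p = 0.000403), 1.65 for Nfil3, 1.35 for Suox, 1.07 for Ly6c1 and 0.996 for Arl4a. These 5 were named for the smallest p of that difference, so that they passed is a description. The difference was 1.79 for Fkbp5, 2.51 for Zbtb16, 2.08 for Adgrg2 and 2.02 for Nr1h4. For the hypoxia genes Ero1l and P4ha2 it was 1.25 and 1.04, and for the ribosome assembly gene Pes1 it was 0.545 (adjusted p = 0.0388). All 12 differences were above 0, that is, the change was less negative or more positive in fasted mice. Over all genes tested, 413 of the 587 with a difference past the threshold were above 0. The ADF libraries, with the highest share of reads in no feature, enter every one of these values, and the part of that share was not tested.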

How the results depend on the processing

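The average gave 3278 genes, and 3234 with DESeq2 size factors, 3700 with DESeq2, 4903 with limma-voom (2414 lower), 2470 in an additive model, 2606 with no filter, 3171 with a stricter filter and 2529 among protein-coding genes alone. With the share of no-feature reads as a covariate 27 passed, 8 higher and 19 lower; 11 moved alike and 0 passed within both diets, but 3203 of the 3278 kept their direction. The count of genes past the threshold within both diets, 232, was 375 with DESeq2 and 494 with limma-voom, which also gave 2415 genes moved alike. Leaving out 1 tumour in turn gave 2069 (without ENZ replicate 3) to 3886 (without ENZ replicate 1) genes, and 2100 without ADF replicate 4, with 1088 to 1990 higher and 981 to 1896 lower, 1039 to 2045 moved alike and 99 to 345 past the threshold within both diets. In each of these 16 fits, 1793 genes were called, 975 of those moved alike and all 232, which the same libraries had chosen. Smad6, Ski, Ltbp1, Fst, Ccn2, Srm and Hspe1 were named by direction only and were not followed gene by gene. Of the 5 lower TGF-beta genes among these, not all kept their call, since that list had 1 lower gene without ENZ replicate 3. Of the other 101 genes named with an average past the threshold, 101 kept it in all 16 fits. In the other 7 settings but the covariate 87 kept it throughout, 7 kept it but were not tested in 1 setting, and 7 lost it: Zbtb16, P4ha2, Nfil3 and Arl4a lost it in the additive model and Itga6, Trp63 and Aspn with no filter. Myc, never past the threshold, was -0.0602 with the covariate, and Mki67 was -0.015 with it and -0.0232 to 0.0948 in the 16 fits. By limma-voom the higher members were 18 of S phase, 35 of histones and 50 of ribosomal proteins (18 in the additive model). No paired analysis was possible because the replicate numbers only name the tumours. The fits that left out a tumour assume a common spread. With 4 tumours a group, genes with under about 1 CPM were measured imprecisely.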
